A study of Mus musculus with 2 samples.

Results

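The 7 genes described here are transcription factor genes that act downstream of T cell receptor and interferon signals: the NFAT genes Nfatc1, Nfatc2 and Nfatc3, and the interferon regulatory factor genes Irf4, Irf8, Irf1 and Irf2. They were taken by name from the 35976 gene rows of the count tables, and all 7 had a row. Their levels were read in 736 single CD4 T cells, per plate and per pool, together with the share of cells positive for each gene and their co-expression with Nr4a1, an orphan nuclear receptor gene that is induced within hours of receptor signalling.

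The question of the study was what IL-13, sensed by dendritic cells, does to the differentiation of helper T cells. OTII cells, which carry a transgenic T cell receptor for ovalbumin, were transferred into host mice and sorted from spleen at day 7 after CAS and a second priming (the labels do not explain CAS). The deleted pool came from 3 hosts of the strain IL13Ra1f/f, CD11cCre/+, in which Cre is driven by the CD11c promoter and the receptor gene is lost mainly in dendritic cells, not in the transferred T cells. The control pool came from 2 C57BL/6 hosts. All hosts received OTII cells and the same priming. Cells of both pools were sorted as propidium iodide negative, Vb5.1-5.2 positive and CD4 positive, and since no congenic marker is named, CD4 cells of the host with the same receptor chain may be among them. Each pool was 1 sample on 4 plates of 92 cells. Differences between pools therefore have no test, the plates are technical splits of the same animals, and plate and pool cannot be told apart.

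NFAT proteins rest in the cytoplasm as phosphoproteins. Calcium that enters after receptor engagement activates the phosphatase calcineurin, which frees NFAT to enter the nucleus, where it binds GGAAA cores alone or beside AP-1 factors; kinases such as GSK3 and DYRK send it back. Nfatc1 is itself induced by NFAT in activated T cells, while Nfatc2 and Nfatc3 are present in resting T cells. IRF4 rises with the strength of receptor signalling and binds DNA with BATF and JUN family partners in T cells, IRF8 is its close relative best known from myeloid and B cells, IRF1 is induced by interferon gamma, and IRF2 competes with IRF1 for the same sites.

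Windows from 3 IRF promoters are given because they hold elements of the interferon pathway that the Irf4 window lacks. A search of the 250 bases before each RefSeq start (GRCm38.p6, both strands) used the gamma-activated sequence TTCNNNGAA, the interferon response pair GAAANNGAAA, the NFAT core GGAAA and the kappaB site GGGANTNCC. Nfatc1 had no promoter entry and was not searched. In the first-listed start of each gene searched, TTCNNNGAA was found in Irf1 and Irf8 and also in Irf2, and GAAANNGAAA in Irf2, while the window of Irf4 held none of the 4 motifs. The second listed starts of Irf1 and Irf8 held no TTCNNNGAA. Of all 32851 promoter windows, 7.02% held TTCNNNGAA, 2.98% held GAAANNGAAA, 55.6% held GGAAA and 3.36% held GGGANTNCC. Capitals mark TTCNNNGAA in the Irf1 and Irf8 windows and GAAANNGAAA in the Irf2 window, and the GGAAA of the Irf1 and Irf8 windows overlaps TTCNNNGAA by its letters. The TTCNNNGAA of Irf2, 224 bases before the start, also lies in the Irf2 window but is left in small letters, and a GGAAA overlaps it too. A match is a string of letters and no evidence of binding. The windows lie on the plus strand at chr11:53769894-53769962 (Irf1), chr8:120736157-120736225 (Irf8) and chr8:46739495-46739543 (Irf2).
Irf1: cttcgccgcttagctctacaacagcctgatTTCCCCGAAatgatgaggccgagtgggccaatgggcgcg
Irf8: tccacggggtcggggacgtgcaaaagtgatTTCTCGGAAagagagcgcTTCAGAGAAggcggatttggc
Irf2: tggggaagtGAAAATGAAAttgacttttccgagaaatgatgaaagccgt

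Depth was even between the pools. The deleted pool held 542650671 reads in genes (125197307 to 143937319 per plate) and the control pool 573105030 (137968663 to 148025125 per plate). Medians were 1499762 reads per cell in the deleted pool and 1592794.5 in the control pool. The sorted cells carried the 7 CD4 T cell markers at a summed 5040 counts per 1000000 reads in genes (CPM) in the deleted pool and 5054 CPM in the control pool, while the 7 B cell markers with a row summed to 6.33 and 5.12 CPM. The 9 wells named noinput or dw, taken from those names as wells without a cell, held 6698 to 12348 reads, and in them the reads of each of the 7 genes numbered from 0 to at most 8. One well of deleted plate 4, with 9905 reads, lies within the range of those wells. No 2 cell wells held identical counts.

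**Figure D1:**
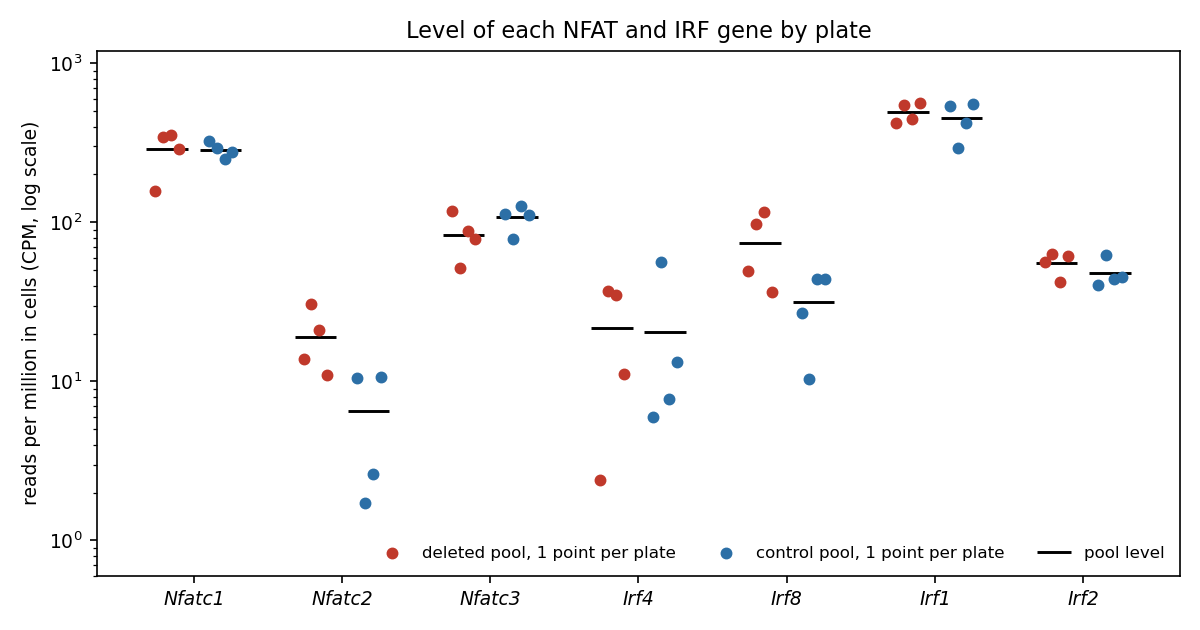
Level of each gene in CPM on a log axis. Each point is the summed reads of the 92 cells of a plate and each line the level of the pool. The plates of the pools overlap for every gene but Nfatc2, whose lowest deleted plate (10.998 CPM) and highest control plate (10.7 CPM) nearly touch.

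Ordered by CPM per kilobase of exon over both pools, Irf1 came first at 119, followed by Nfatc1 at 38.5, Nfatc3 at 8.16, Irf8 at 7.44, Irf2 at 6.98, Irf4 at 4.29 and Nfatc2 at 1.19. The plates of Irf1 (74.2 to 142 CPM per kilobase) and Nfatc1 (20.9 to 47.5) stood clear of each other and of the rest. Nfatc3, Irf8, Irf2 and Irf4 could not be ordered, since their plate ranges overlapped. The plate range of Nfatc2 (0.162 to 2.88) lay below those of Nfatc3 and Irf2, but overlapped those of Irf8 and Irf4. Within each single plate Nfatc2 was also below Irf8, but not always below Irf4.

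Nfatc1, the inducible NFAT gene (80606205 to 80713071 of chromosome 18, minus strand, GRCm38), was positive in the most cells of the 7, and its pool levels were close. It read 156, 344, 354 and 288 CPM on the deleted plates and 325, 294, 251 and 275 CPM on the control plates. Deleted plate 1 was the lowest of the 8 and deleted plate 3 the highest, so the control plates lay inside the range of the deleted ones. The pool levels were 288 and 287 CPM, a log2 ratio of 0.01 (deleted over control, 1 CPM added to each), and leaving out any plate kept the ratio between -0.11 and 0.19.

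Nfatc3 (106058840 to 106130537 of chromosome 8, plus strand), an NFAT gene of resting T cells, read 118, 51.6, 87.7 and 78.4 CPM on the deleted plates and 112, 78.8, 126 and 112 CPM on the control plates. Deleted plates 2, 3 and 4 were under 3 of the control plates, but deleted plate 1 was the second highest of the 8. The pool levels of 83.3 CPM in the deleted pool and 107 CPM in the control pool gave a log2 ratio of -0.36, the only one of the 7 below 0. Exons of Nfatc3 overlap those of Esrp2 on the other strand, and the counting is not stated to use strand, so reads of the 2 genes cannot be told apart there.

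Nfatc2 (168476410 to 168601657 of chromosome 2, minus strand), the NFAT protein that is abundant in resting T cells, was the rarest of the 7 transcripts here. It read 13.7, 30.5, 21.2 and 10.998 CPM on the deleted plates and 10.6, 1.71, 2.61 and 10.7 CPM on the control plates. All deleted plates were above all control plates, by 10.998 against 10.7 CPM at the nearest pair. The pool levels of 19.1 and 6.48 CPM gave a log2 ratio of 1.43, and both were under the 20 CPM asked of a gene before its ratio was counted. These levels rest on 16 positive cells in the deleted pool and 9 in the control pool, and 1 cell gave 28.9% and 40.9% of the Nfatc2 reads of its pool.

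Irf8 (120736358 to 120756694 of chromosome 8, plus strand) showed the largest ratio among the 6 genes that reached 20 CPM. It read 49.2, 97.2, 116 and 36.3 CPM on the deleted plates and 27.0, 10.4, 43.9 and 43.8 CPM on the control plates. Deleted plates 1, 2 and 3 exceeded every control plate, and deleted plate 4 was under control plates 3 and 4. The pool levels were 74.7 CPM in the deleted pool and 31.6 CPM in the control pool, 2.32-fold higher (log2 ratio 1.22). The ratio fell short of 2-fold without deleted plate 3 (0.92) and without control plate 2 (0.95).

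Irf4 (30749226 to 30766976 of chromosome 13, plus strand), the IRF gene that follows the strength of the receptor signal, was low, and its pool levels were close. It read 2.40, 37.2, 35.0 and 11.1 CPM on the deleted plates and 5.99, 56.4, 7.75 and 13.2 CPM on the control plates. Deleted plate 1 was the lowest of the 8 and control plate 2 the highest, and the other plates of both pools were intermixed. The pool levels of 21.7 and 20.4 CPM gave a log2 ratio of 0.08. Single plates decided its direction: the ratio was 1.18 without control plate 2, and from -0.29 to -0.08 without deleted plate 2 or 3 or control plate 1, 3 or 4.

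Irf1 (53770014 to 53778374 of chromosome 11, plus strand), the interferon-induced activator, was at 420, 545, 444 and 565 CPM on the deleted plates and at 538, 295, 423 and 551 CPM on the control plates. Control plate 2 was the lowest of the 8 and the other 7 were intermixed. Exons of Irf1 overlap those of Gm17334 on the other strand, which has no row, so reads of Gm17334 there may have been counted as Irf1. Irf1 pool levels of 496 and 454 CPM gave a log2 ratio of 0.13. Irf2 (46739732 to 46847458 of chromosome 8, plus strand), its competitor, read 56.0, 63.4, 42.0 and 61.4 CPM on the deleted plates and 40.4, 62.2, 44.0 and 45.01 CPM on the control plates. The plates overlapped, and the pool levels of 55.7 and 47.8 CPM gave a log2 ratio of 0.22.

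Of all genes, 7207 had at least 20 CPM in either pool, 6 of the 7 among them. None of the 6 had all its deleted plates above all control plates, which 1.82% of the 7207 genes had, and none had all of them below, which 2.86% had. One of the 6, Irf8, was at least 2-fold higher in the deleted pool (2.75% of all genes) and none at least 2-fold lower (3.16%). The median log2 ratio over the 7 genes was 0.13, with 6 above 0 and 1 below, and over the 7207 genes it was -0.04, with 45.4% above 0.

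Most reads of each gene came from a part of the cells. Positive cells were those with at least 10 CPM that also had no less than 5% of the plate's mean level, and they held between 95.1% and 99.6% of the reads of each of the 7 genes in each pool. Nfatc1 was positive in 210 cells of the deleted pool (57.1%) and in 192 of the control pool (52.2%), a difference of 4.89 percentage points with a 95% interval (Newcombe) of -2.29 to 12.004. For Irf2 the counts were 125 and 112 cells (34.0% and 30.4%), for Irf1 112 and 103 (30.4% and 28.0%), and for Nfatc3 74 and 86 (20.1% and 23.4%). The other genes were rare: 22 cells of the deleted pool and 15 of the control pool were positive for Irf8 (5.98% and 4.08%), 16 and 14 for Irf4 (4.35% and 3.80%), and 16 and 9 for Nfatc2 (4.35% and 2.45%). The interval of the difference between pools included 0 for all 7 genes. Nr4a1, by contrast, was positive in 189 cells of the deleted pool (51.4%) and 121 of the control pool (32.9%), a difference of 18.5 points (11.4 to 25.3). Intervals cover the counting of cells only, not the spread between animals.

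**Figure D2:**
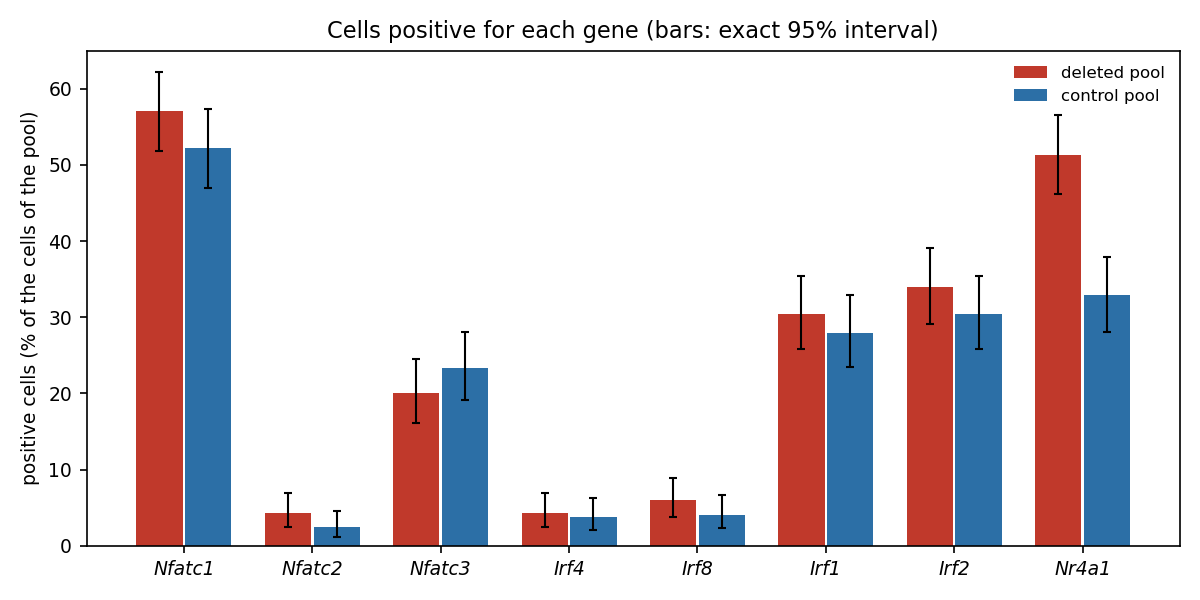
Share of the cells of each pool that were positive for each gene, with exact (Clopper-Pearson) 95% intervals. Nfatc1 exceeds 50% in both pools, Irf4, Irf8 and Nfatc2 stay under 6%, and of the 8 genes shown Nr4a1 has intervals that do not overlap between the pools.

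The amount of transcript in a positive cell differed more between genes than between pools. Irf1 was highest, with a median of 1425 CPM in the positive cells of the deleted pool and 1293 CPM in those of the control pool. Irf4 and Irf8, though rare, were not weak where present: the median in Irf8-positive cells was 901 and 634 CPM, and in Irf4-positive cells 506 and 335 CPM. Irf2 was frequent and weak, at 110.4 and 123 CPM, and no cell passed 677 CPM of it in the deleted pool or 820.4 in the control pool. Nfatc1-positive cells reached up to 3359 CPM in the deleted pool and 3962 CPM in the control pool, around medians of 174 and 228 CPM. Medians for Nfatc3 were 225 and 310 CPM, and for Nfatc2 191 and 107 CPM.

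**Figure D3:**
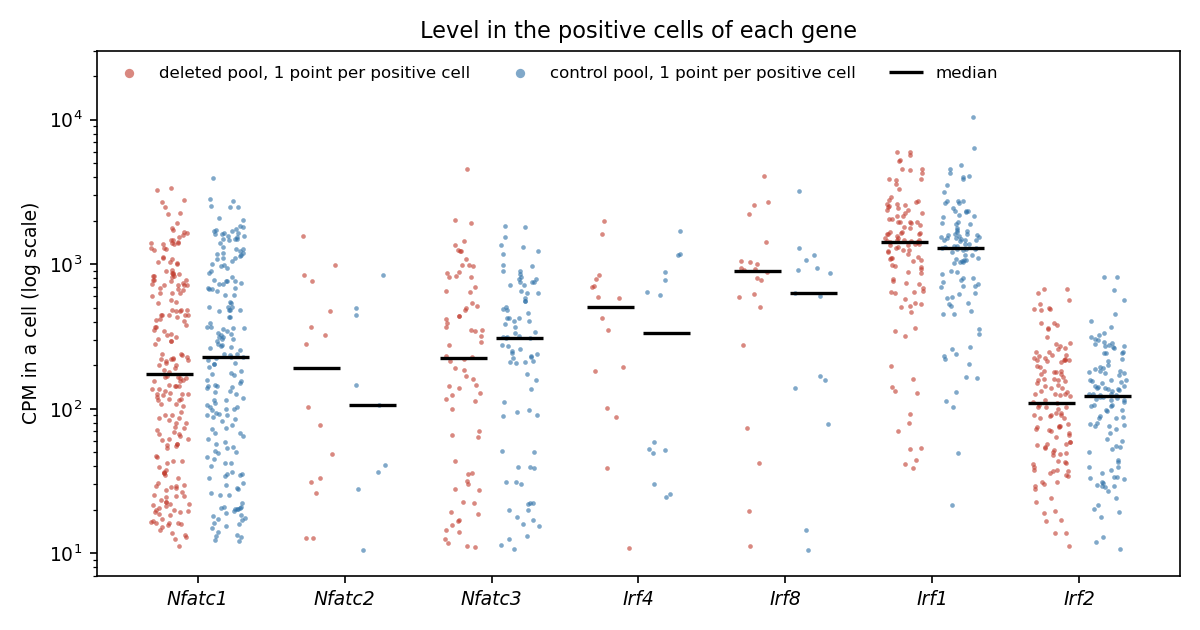
CPM of each gene in every positive cell (1 point per cell, log axis) with the median of each pool. Medians are highest for Irf1 (1425 and 1293 CPM) and Irf8 (901 and 634 CPM) and low for Irf2 (110.4 and 123 CPM), and Nfatc1-positive cells fill the range from 10 CPM to 3359 and 3962 CPM.

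In shallow wells the 10 CPM level was reached by as few reads as wells without a cell contain. A stricter call, chosen after seeing the data, also asked for more reads of the gene than any of the 9 no-cell wells held. It left 18 of 22 Irf8-positive cells in the deleted pool and 14 of 15 in the control pool, a difference of 1.09 points. The 4 dropped wells of the deleted pool held 2 to 5 Irf8 reads at depths of 9905 to 203180, and the 1 of the control pool 8 reads at 553928. Spi1 and Tyrobp, genes of myeloid cells, were each positive in all 4 dropped wells of the deleted pool, and in the 1 of the control pool Tyrobp was positive and Spi1 was not. These are first calls at 10 CPM, which a few reads meet at such depths, and they were not compared with the no-cell wells. Pool levels were 1.31 and 2.93 CPM for Spi1 and 2.98 and 2.31 CPM for Tyrobp, so the calls do not show what these wells held. Among the Irf8-positive cells that stayed, Tyrobp was positive in 0 of 18 and 0 of 14 and Spi1 in 0 of 18 and 1 of 14, while all 18 and all 14 had at least 2 of the 7 CD4 T cell markers. Other genes of the myeloid and dendritic list (Cd74, H2-Aa and Lyz2) were positive in most cells, with or without Irf8. By the first call, at least 2 of the 12 were positive in 18 of 22 Irf8-positive cells of the deleted pool and 320 of 346 others. In the control pool it was 13 of 15 and 261 of 353. The 12 myeloid and dendritic markers summed to 69.8 to 87.1 CPM on the deleted plates and 57.6 to 76.6 CPM on the control plates, with none of them at 0 reads and 3 under 1 CPM. In Irf8-positive cells, dropped wells included, they summed to 94.8 CPM in the deleted pool and 114 CPM in the control pool, against 74.9 and 64.7 CPM in Irf8-negative cells, and their part in the Irf8 result was not tested. For the other genes the stricter call removed 3 Nfatc1, 2 Irf1, 1 Nfatc3 and 1 Irf4 cells, all of the deleted pool.

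At least 1 of the 7 genes was called in 316 cells of the deleted pool (85.9%) and 308 of the control pool (83.7%), an NFAT gene in 242 and 234, and an IRF gene in 214 and 201. Most cells had 1 gene (138 and 147 cells) or 2 (112 and 108), and 12 and 9 cells had 4 or more. Irf4-positive cells were mostly Nfatc1-positive as well. In the deleted pool 14 of 16 Irf4-positive cells (87.5%) had Nfatc1, against 196 of 352 other cells (55.7%), a difference of 31.8 points (7.75 to 42.2). In the control pool it was 11 of 14 (78.6%) against 181 of 354 (51.1%), a difference of 27.4 points (0.775 to 42.2). By the stricter call the counts were 13 of 15 and 11 of 14. This was the one of 21 pairs whose interval excluded 0 in both pools, and 7 of all 42 intervals did.

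Another 5 pairs had an interval without 0 in 1 pool. Irf4 was positive in 4 of 22 Irf8-positive cells of the deleted pool (18.2%) and 12 of 346 others (3.47%), but in 1 of 15 Irf8-positive cells of the control pool. By the stricter call 3 of 18 Irf8-positive cells of the deleted pool kept Irf4. Irf8 and Irf2 shared 6 cells of the deleted pool and none of the control pool, where 15 and 112 cells had one of them. Irf8 with Irf1 in the deleted pool, and Irf4 with Irf1 and Nfatc3 with Irf2 in the control pool, were the remaining ones. Irf8 and Irf1 shared 11 cells of the deleted pool, of which 7 were left by the stricter call. Whether any pair differed between the pools was not tested.

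Co-expression with Nr4a1 was weak for all 7 genes in the deleted pool and for 6 of the 7, all but Irf4, in the control pool. Nfatc1 was called in 111 of 189 Nr4a1-positive cells of the deleted pool (58.7%) and in 99 of 179 Nr4a1-negative ones (55.3%), and in the control pool in 66 of 121 (54.5%) and 126 of 247 (51.0%). Nfatc3 differed by 1.08 points between Nr4a1-positive and Nr4a1-negative cells of the deleted pool and by 0.890 in the control pool, Nfatc2 by 0.851 and 1.28, and Irf8 by 1.85 and 1.32. Irf2 was called in 36.5% of Nr4a1-positive and 31.3% of Nr4a1-negative cells of the deleted pool, and in 33.1% and 29.1% in the control pool. Irf1 was at 33.3% and 27.4% in the deleted pool and at 28.1% and 27.9% in the control pool. All these intervals included 0, though all 14 differences, Irf4 included, were above 0 with all cells at full depth. The direction was not stable. With cells thinned to 500000 reads the difference was -0.83 for Irf8 and -0.87 for Nfatc3 in the deleted pool and -0.41 for Irf1 in the control pool. Over all alternatives, leaving out a plate included, 9 of the 14 changed sign under at least 1, down to -3.26 for Nfatc1 in the control pool without control plate 3. Those that did not were Irf4 in both pools, Irf2 in the deleted pool, and Nfatc2 and Irf8 in the control pool.

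Irf4 in the control pool had the one of the 14 intervals that excluded 0. It was positive in 9 of 121 Nr4a1-positive cells (7.44%, exact 95% interval 3.46 to 13.7) and in 5 of 247 Nr4a1-negative cells (2.02%, 0.660 to 4.66). The difference of 5.41 percentage points had an interval of 1.06 to 11.6 and was above 0 on 4 of 4 plates, by 0.274 to 8.76 points. In the deleted pool 10 of 189 Nr4a1-positive cells (5.29%) and 6 of 179 Nr4a1-negative cells (3.35%) had Irf4, a difference of 1.94 points (-2.52 to 6.49), above 0 on 3 of 4 plates. By the stricter call this became 9 of 187 and 6 of 181. Of the cells positive for both Irf4 and Nr4a1, 8 of 10 in the deleted pool and 8 of 9 in the control pool were also Cd69-positive. Cd69 was positive in 84 of the 189 Nr4a1-positive cells of the deleted pool and 45 of 121 of the control pool. Few Irf4-positive cells were thus left among the Nr4a1-positive cells without Cd69, which were not compared on their own. A link of Irf4 to Nr4a1 alone was not shown. The Irf4 level was 29.99 CPM in Nr4a1-positive and 12.7 CPM in Nr4a1-negative cells of the deleted pool, and 43.4 and 8.61 CPM in the control pool. Depth was similar, with medians of 1511858 and 1473304 reads per cell in the deleted pool and 1643345 and 1564414 in the control pool. Summed immediate early and heat shock genes moved the same way, at 3729 and 3400.1 CPM in the deleted pool and 3371 and 2128 CPM in the control pool, and their part in the result was not tested.

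Cells were also ranked by Nr4a1 within a plate and split into 3 parts. Over the low, middle and high parts, Irf4-positive cells numbered 3, 5 and 8 in the deleted pool and 4, 1 and 9 in the control pool, of 124, 124 and 120 cells each. Irf8 had 6, 9 and 7 in the deleted pool and 3, 5 and 7 in the control pool. Over cells with at least 100000 reads (366 in the deleted pool and 368 in the control pool), the Pearson correlation of log levels with Nr4a1, centred within plates, was 0.08 and 0.14 for Irf4 and between -0.01 and 0.08 for the other genes. These cells share their animals and plates, and correlations this small in sparse counts are given as description.

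**Figure D4:**
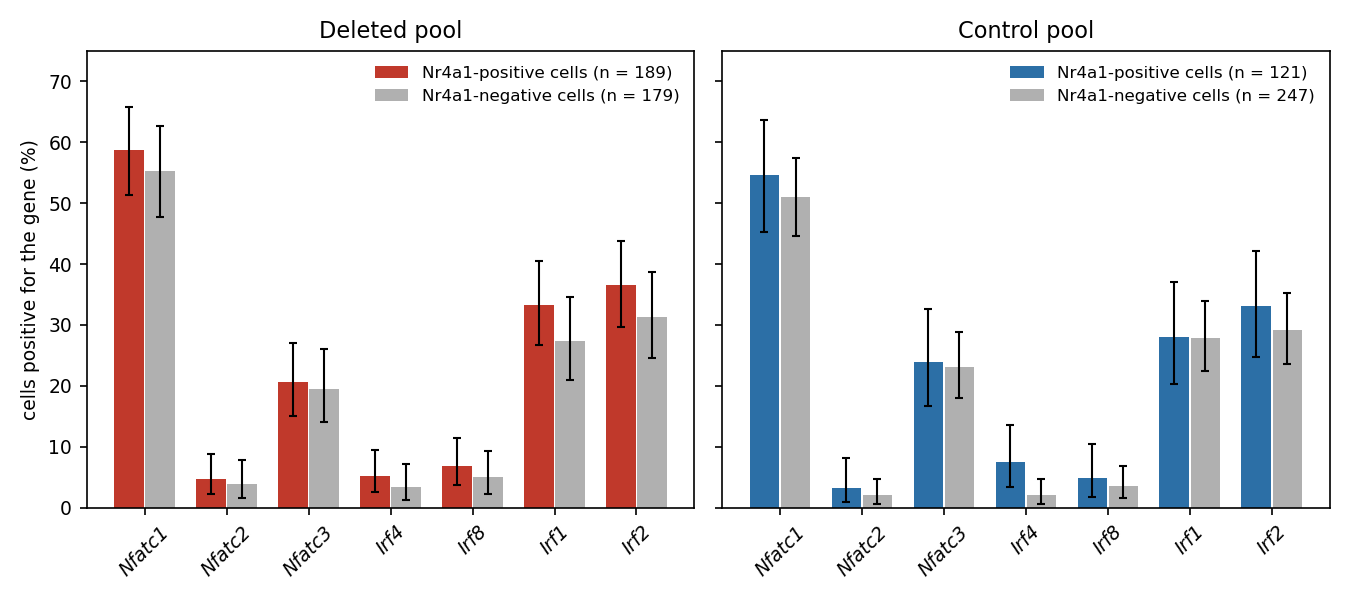
Share of cells positive for each gene among Nr4a1-positive cells (coloured) and Nr4a1-negative cells (grey) of each pool, with exact 95% intervals. For Irf4 in the control pool the bars stand at 7.44% and 2.02%, and for Nfatc1 at 58.7% and 55.3% in the deleted pool and 54.5% and 51.0% in the control pool.

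Classes defined by further activation or helper genes were set against the other cells in the same way. All intervals that excluded 0 were of Nfatc1, Irf4 or Irf8, and none was of Nfatc2, Nfatc3, Irf1 or Irf2. Among cells positive for both Nr4a1 and Cd69, an early activation marker, Irf4 was found in 8 of 84 cells of the deleted pool (9.52%), against 8 of 284 others (2.82%), and in 8 of 45 of the control pool (17.8%), against 6 of 323 (1.86%). This class is a part of the Nr4a1-positive cells above and shares most of their Irf4-positive cells, so it is no separate result. Among cells positive for Tnfrsf9, the costimulatory receptor 4-1BB, Irf8 was found in 10 of 64 of the deleted pool (15.6%), against 12 of 304 others (3.95%), and in 6 of 46 of the control pool (13.04%), against 9 of 322 (2.80%). Nfatc1 was positive in 52 of 64 Tnfrsf9-positive cells of the deleted pool (81.3%), against 158 of 304 others (52.0%), and in 28 of 46 of the control pool (60.9%), against 164 of 322 (50.9%). Among cells positive for Cxcr5, the follicle-homing receptor of follicular helper cells, Nfatc1 reached 73.7% of 57 cells in the deleted pool and 73.9% of 46 in the control pool, against 54.0% and 49.1% of the other cells.

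The intervals excluded 0 in both pools for Irf4 with Nr4a1 and Cd69, for Irf8 with Tnfrsf9 and for Nfatc1 with Cxcr5, and 10 of the 42 intervals computed for these classes did so. Irf8 with Tnfrsf9 and Nfatc1 with Cxcr5 were above the other cells on 4 of 4 plates of each pool, and Irf4 with Nr4a1 and Cd69 on 3 of 4 deleted and 4 of 4 control plates. By the stricter call Irf8 was in 8 of 62 Tnfrsf9-positive cells of the deleted pool (12.9%) and 10 of 306 others (3.27%), and Irf4 in 7 of 82 cells with Nr4a1 and Cd69 (8.54%) and 8 of 286 others (2.80%). Irf8 was found in 9 of 57 Cxcr5-positive cells of the deleted pool (15.8%) and in 1 of 46 of the control pool (2.17%), against 4.18% and 4.35% of the other cells, and whether the pools differed was not tested. Irf4 was in 4 of 57 Cxcr5-positive cells of the deleted pool (7.02%, against 3.86%) and 6 of 46 of the control pool (13.04%, against 2.48%), and the interval excluded 0 in the control pool. Among Tnfrsf9-positive cells Irf4 was in 7 of 64 of the deleted pool (10.9%, against 2.96%) and 1 of 46 of the control pool (2.17%, against 4.04%). Nfatc1-positive cells had more genes at 5 or more reads than Nfatc1-negative cells, with medians of 1618.5 and 1457 in the deleted pool and 1638 and 1513.5 in the control pool. So did Irf4-positive cells (1666 and 1540, and 1755.5 and 1566) and Irf8-positive cells (1677 and 1537.5, and 1708 and 1572). Irf4-positive cells of the control pool were also deeper, with medians of 1844179 and 1585103 reads. The part of this in the classes was not tested.

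**Figure D5:**
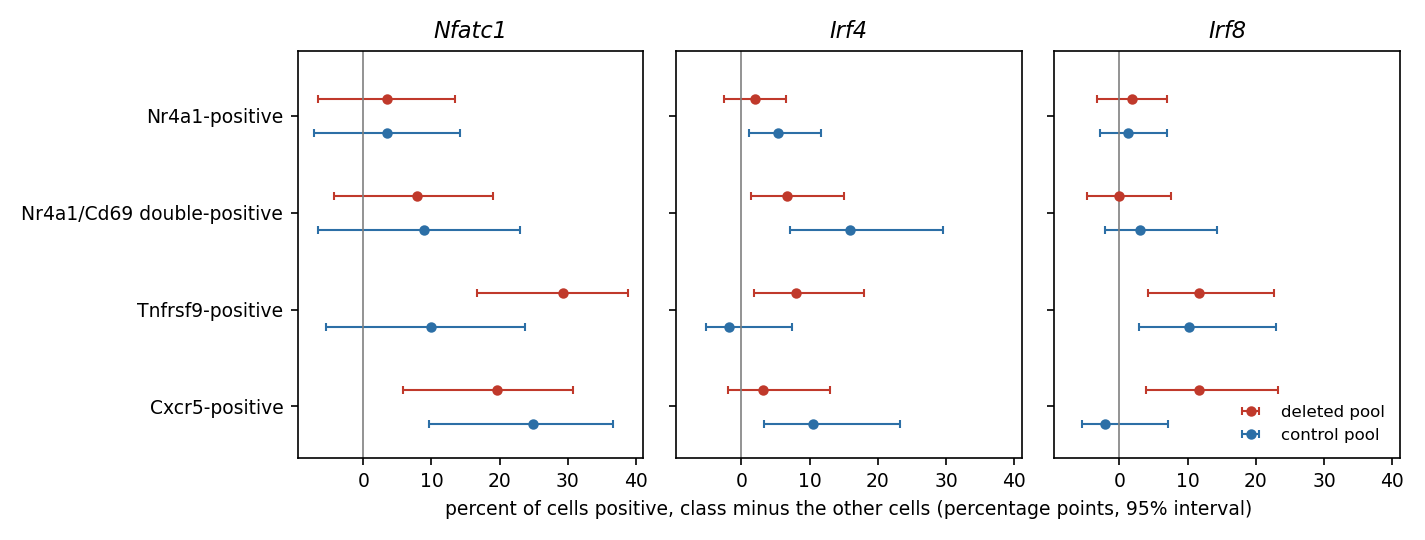
Difference in the share of positive cells between a class and the other cells of the same pool, in percentage points with Newcombe 95% intervals, for Nfatc1, Irf4 and Irf8. Intervals clear of 0 in both pools are those of Irf4 in cells positive for Nr4a1 and Cd69, Irf8 in Tnfrsf9-positive cells and Nfatc1 in Cxcr5-positive cells.

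Of 16 calcium and calcineurin genes, which feed NFAT, 15 reached 20 CPM, with a median log2 ratio of 0.07. Of the 15, 1 was separated upward and 1 downward (1.82% and 2.86% of all genes), and 1 was 2-fold higher and 1 lower (2.75% and 3.16%). Plcg1, the phospholipase that starts the calcium signal, had all deleted plates above all control plates (206 and 144 CPM), and the calmodulin gene Calm3 had all of them below (42.6 and 63.8 CPM). Ppp3ca, a catalytic subunit of calcineurin, was 24.9 and 10.7 CPM (log2 ratio 1.15), and the calcium channel gene Orai3 27.1 and 55.5 CPM (-1.01), both with overlapping plates. Calm2, an abundant calmodulin gene, was within 2-fold (600.2 and 642 CPM). Of 12 NFAT kinases and calcineurin inhibitors, 7 reached 20 CPM, none was separated by plates or past 2-fold, and the median was 0.10. Csnk1a1, a casein kinase that phosphorylates NFAT, was at 357 and 333 CPM.

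Of 17 genes known as NFAT targets, 10 reached 20 CPM, with a median log2 ratio of 0.13. None was separated by plates (1.82% of all genes upward and 2.86% downward). In the deleted pool none was 2-fold higher and 2 were 2-fold lower (2.75% and 3.16% of all genes). Tnf was at 3.75 CPM in the deleted pool and 23.6 CPM in the control pool, in 5 and 13 positive cells. Egr3, a receptor-induced regulator, was at 12.8 and 30.7 CPM. Nr4a1, itself on this list, was at 1343.5 and 929 CPM (log2 ratio 0.53, plates overlapping). Of the 5 further NFAT and IRF genes that reached 20 CPM, Irf9, the DNA-binding part of the interferon complex ISGF3, had all deleted plates below all control plates (118 and 216 CPM, log2 ratio -0.86), as 2.86% of all genes had. Irf3 (151 and 185 CPM) and Irf7 (98.99 and 90.8 CPM) overlapped, and Nfatc4 had no read in any cell.

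The Jun family partners of IRF4 and IRF8 were higher in the deleted pool. Of 8 partner genes at 20 CPM or more, 3 had all deleted plates above all control plates and 1 of them was 2-fold higher, with a median of 0.29 over the 8, of which 5 were above 0 and 3 below. Of all genes, 1.82% were separated upward, 2.75% were 2-fold higher and 45.4% were above 0. Junb was at 2890 CPM in the deleted pool and 1285 CPM in the control pool (log2 ratio 1.17), Jun at 471 and 284 CPM and Jund at 261 and 188 CPM. Batf, the partner that recruits IRF4 to DNA in T cells, was at 82.4 and 88.6 CPM with overlapping plates. Jun also belongs to the immediate early and heat shock list, of which 3 of 7 measured genes were separated upward and 1 downward (1.82% and 2.86% of all genes). The others upward were Ier2 (458 and 304 CPM) and Dusp1 (1228 and 656 CPM), and the one downward was Egr1 (116 and 296 CPM). The 7 had a median log2 ratio of 0.45, with 6 above 0. The whole list of 11 summed to 3571 CPM in the deleted pool (plates 3328 to 3809) and 2551 CPM in the control pool (2184 to 3020), with no overlap. Its part in the levels of the Jun genes and Nr4a1 was not tested.

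None of the listed genes upstream and downstream of Irf1 was separated by plates (1.82% of all genes upward and 2.86% downward). Of 9 genes of interferon receptor signalling, none was past 2-fold, 7 were above 0 and 2 below (median 0.14), with Jak1, a kinase of the receptors, at 1238 and 1122 CPM. Of 9 genes known as IRF1 targets, 1 was 2-fold lower (3.16% of all genes), and 1 was above 0 and 8 below (median -0.07). Of all genes, 45.4% were above 0. The target that was 2-fold lower, Gbp3, a guanylate binding protein gene, was at 0.540 CPM in the deleted pool and 32.7 CPM in the control pool, with 3 and 12 positive cells and overlapping plates. Psmb8, an immunoproteasome subunit gene, was at 724 and 738 CPM. The 12 genes that link the receptor to Irf4 (Lck at 3110 and 2848 CPM among them) and the 3 genes of IRF2 binding proteins had medians of 0.01 and -0.03 and none separated or past 2-fold.

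The genes whose pattern over single cells was most like each member were sought among those with at least 100 CPM, over 734 cells, by the Pearson correlation of plate-centred log levels. For Nfatc1 they were Lax1 (0.23), Icos (0.22) and Cd200 (0.20). For Irf4 they were Egr2 (0.21), Rilpl2 (0.20) and Btla (0.19), and for Irf8 Sox4 (0.18), Il4ra (0.18) and Tnfrsf9 (0.16). The leading genes of Nfatc2 (Rnf4, 0.15), Nfatc3 (Bcl3, 0.12), Irf1 (Gm8995, 0.13) and Irf2 (Glg1, 0.13) had lower values. The 99th percentile over all candidate genes was 0.15 for Nfatc1, 0.11 for Irf4 and Irf8, 0.10 for Nfatc2 and Irf2, and 0.09 for Nfatc3 and Irf1. The values of different members are therefore not on 1 scale. The cells share plates and animals, so these values describe this set of wells.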

How the data were processed

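SmartSeq2 libraries of single sorted cells were analysed from raw counts of reads in each gene and well, whole numbers as the authors deposited them. Per the submitters' processing notes, reads were assigned with featureCounts 2.0.1 on mm10. The sources used here name no aligner, annotation, strand setting or treatment of multimapping reads. The protocol names no molecular identifiers, so PCR copies count as reads and intervals cover counting error only.

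Each of the 8 plates had 96 wells, of which 92 held cells. All 736 cell wells were kept. Counts were summed per plate and pool and scaled to 1000000 reads in genes (CPM). Log2 ratios used (CPM + 1). With 1 pooled sample per group no test was made between pools. Separated means every plate of one pool above every plate of the other. Shares have exact Clopper-Pearson, differences Newcombe 95% intervals. Lengths and coordinates are from GENCODE M21 (GRCm38), and promoter sequences from RefSeq (GRCm38.p6), with no genome sequence used. edgeR 4.0.16 and DESeq2 1.42.0 gave alternative scaling factors only. Further alternatives were other pseudocounts, level and read minimums, thinning to 500000 reads (6 shallower cells left out, 4 of the deleted and 2 of the control pool) and leaving out cells or plates. The plate comparison and intervals were tested on simulated data, with changes planted only in genes at 20 CPM or more. The simulated spread between plates was set in advance and not fitted to Nfatc2, Irf4 or Irf8, so it does not cover these rare genes. Python 3.11.15, scipy 1.17.1 and R 4.3.3 were used.

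Members and gene lists were chosen with earlier results of these data known. Named from the lists were genes separated or past 2-fold at 20 CPM or more, with up to 4 abundant examples per list. No doublet caller was run on these plate-sorted cells.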

Additional observations from a re-analysis of the deposited data

Results flagged for a closer look

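The control wells named mBM10 and mBM100, 23 in all, entered no comparison, and the labels do not explain the name. In these wells 6 of the 7 genes had a median read number above the highest of the 9 no-cell wells. Pooled over the 23 wells, Irf8 was at 452 CPM, Irf1 at 171 CPM, Nfatc1 at 48.2 CPM, Irf4 at 44.7 CPM, Nfatc3 at 33.9 CPM and Irf2 at 15.8 CPM. Irf8 was at 10 CPM or more in all 23 wells and above the no-cell maximum in 22, with up to 2208 reads, and its level there was above that of both pools of sorted cells (74.7 CPM in the deleted pool and 31.6 CPM in the control pool). Irf8 also had the most reads of the 7 genes in the no-cell wells, 2 to 8. These wells stood on the same plates as the cells, and the part of this in the low Irf8 counts of shallow wells was not tested.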

How the results depend on the processing

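Of 351 values recomputed under alternative settings, 341 stayed within the spread between plates, the interval of the share or 1.5 times the count, and 10 moved. These bounds are wide, and a value within them could still change sign. The log2 ratio of Irf4 ran from -0.29 to 1.18 with 1 plate left out. Of the 14 Nr4a1 differences, 9 changed sign under at least 1 alternative. Counting a cell as positive at 1 read moved the difference between pools for Irf4 to 5.98 points. The other 9 values that moved were counts over all genes. Genes with all deleted plates above all control plates numbered 58 at a minimum of 100 CPM and 279 with no minimum, and genes with all of them below 92 at a minimum of 100 CPM. Genes at least 2-fold higher in the deleted pool numbered 584 at a minimum of 5 CPM, 13 at 100 CPM and 1176 with no minimum, and those at least 2-fold lower 655, 10 and 1262. The log2 ratio of Irf8 was 1.001 to 1.30 under the settings that kept all plates and 0.92 to 1.46 with 1 plate left out. The log2 ratio of Nfatc2 was 0.82 to 1.59 with all plates, the lowest with 10 CPM added. Scaling factors moved the median log2 ratio of all genes from -0.04 to -0.02 (TMM) or -0.01 (DESeq2). The stricter call of positive cells was chosen after seeing the data. Values of Nfatc2, Irf4 and Irf8 rest on 9 to 22 positive cells per pool, and the 1 to 8 reads found without a cell limit calls in shallow wells. No paired analysis was possible because each group is 1 pooled sample with no test.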

Other observations

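The 3 rare genes differed in how many cells held any read of them. No Nfatc2 read was found in 308 cells of the deleted pool and 324 of the control pool, and no Irf4 read in 273 and 295. For Irf8 the numbers were 38 and 53, with 22 and 15 cells called positive, against 16 and 14 for Irf4 and 16 and 9 for Nfatc2. All 9 no-cell wells also held Irf8 reads, 2 to 8 each, against 0 to 2 for Nfatc2 and 0 to 1 for Irf4. A few Irf8 reads in a well are therefore no sign that its cell expressed Irf8. Regulatory T cell markers, a class in which Irf4 and Nfatc1 are known to act, summed to 319 CPM in the deleted pool (plates from 210.3 to 424 CPM) and 198 CPM in the control pool (164 to 232 CPM), and their part in the levels of the 7 genes was not tested. Most of the sum came from Ctla4 (168 and 98.6 CPM), which is also on the NFAT target list, and Ikzf2 (115 and 78.2 CPM). Foxp3 (28.1 and 14.5 CPM) was positive in 6 cells of the deleted pool and 8 of the control pool, and Il2ra in 4 and 4. The sum is therefore no count of regulatory T cells. At least 2 of those 4 markers were positive in 4 of 22 Irf8-positive cells of the deleted pool and 34 of 346 Irf8-negative ones, and in 1 of 15 and 23 of 353 of the control pool.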
